A study of Mus musculus with 10 samples.

Results

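H3K27me3 regions that were present in all 5 lines of a mouse lymphoma dose escalation series and that lay near a transcription start site (TSS) are described here. The lines are a parental B-cell lymphoma line, Eμ-Myc with Cdkn2a-/- on a C57BL/6J background, together with 4 lines resistant to mafosfamide, an alkylating agent, which were derived from it at 100, 500, 1000 and 4000 nM and are named R100, R500, R1000 and R4000 after these doses. All lines carry both alterations, a Myc gene driven in B-lineage cells by an immunoglobulin heavy chain enhancer and the loss of Cdkn2a, and the cells were grown without mafosfamide for ChIP-seq. The resistant lines are sub-clones of 1 parental line. Each line is represented by a single peak list that holds positions and no height, score or count, so the depth of the libraries is unknown and no difference between lines could be tested. Overlapping peaks of the 5 lists were merged into 47264 regions, and 1678 of these held a peak of every line. Of the 1678, 1371 lay within 5 kb of the 5′ end of an annotated gene (81.7%), and these are the members. Presence in all lists and the distance from the TSS chose the members, so neither is a finding. The measure reported for a member is its covered length, the number of bases that the peaks of 1 line cover inside it, which is an extent and not a level of the mark.

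H3K27me3 is laid down by the polycomb repressive complex 2 (PRC2), whose catalytic subunit is Ezh2, and is read by PRC1 through its Cbx subunits. The mark is typical of silent developmental genes, above all transcription factors of the homeobox, forkhead, T-box and basic helix-loop-helix (bHLH) families, and it often spreads over CpG-rich promoters. Differentiated cells keep it on regulators of other lineages. In B cells, Hox clusters, neural regulators and signalling ligands are familiar targets, while housekeeping genes are usually free of it.

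Stretches of DNA covered in all 5 lines are shown for 6 members, to give the sequence that these regions share. They are the middle 200 bp of the longest commonly covered stretch outside annotated UTRs, read from the plus strand of mm9, with each CpG dinucleotide in capitals.
Osr2, chr15:35226487-35226686: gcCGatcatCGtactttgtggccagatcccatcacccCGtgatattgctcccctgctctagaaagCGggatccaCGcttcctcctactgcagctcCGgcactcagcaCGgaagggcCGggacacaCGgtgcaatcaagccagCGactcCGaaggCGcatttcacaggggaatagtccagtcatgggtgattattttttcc
Atf3, chr1:193008476-193008675: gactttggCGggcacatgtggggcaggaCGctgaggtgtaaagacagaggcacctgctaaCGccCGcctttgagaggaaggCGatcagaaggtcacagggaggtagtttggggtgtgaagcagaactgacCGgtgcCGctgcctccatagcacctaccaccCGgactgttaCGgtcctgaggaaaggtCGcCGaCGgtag
Lrsam1 and Rpl12, chr2:32817751-32817950: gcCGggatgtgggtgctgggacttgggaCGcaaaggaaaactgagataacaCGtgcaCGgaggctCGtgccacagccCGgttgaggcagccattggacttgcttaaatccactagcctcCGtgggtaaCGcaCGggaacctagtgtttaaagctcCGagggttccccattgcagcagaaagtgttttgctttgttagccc
Bmi1, chr2:18599680-18599879: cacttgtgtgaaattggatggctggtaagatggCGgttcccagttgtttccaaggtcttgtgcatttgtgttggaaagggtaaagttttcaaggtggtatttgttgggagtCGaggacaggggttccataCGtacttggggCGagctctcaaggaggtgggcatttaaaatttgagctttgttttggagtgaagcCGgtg
Hoxa7, chr6:52168143-52168342: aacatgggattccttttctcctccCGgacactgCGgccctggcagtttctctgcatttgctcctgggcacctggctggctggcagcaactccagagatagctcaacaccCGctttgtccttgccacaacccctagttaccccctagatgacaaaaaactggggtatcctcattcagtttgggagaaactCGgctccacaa
Fgf9, chr14:58693227-58693426: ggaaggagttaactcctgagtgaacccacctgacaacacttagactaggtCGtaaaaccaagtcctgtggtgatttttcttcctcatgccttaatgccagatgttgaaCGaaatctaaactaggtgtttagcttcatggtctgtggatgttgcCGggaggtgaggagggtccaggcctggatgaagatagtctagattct
CpG content differed widely between them. The stretches of Osr2, inside the gene, and Atf3, upstream of it, held 12 CpG dinucleotides each, with observed-to-expected CpG ratios of 0.76 and 0.69. The stretch upstream of Lrsam1, next to Rpl12, held 10, and the intronic one of Bmi1 held 5. The stretch assigned to Hoxa7, which lies downstream of its TSS by 3511 to 3710 bp, held 4 (ratio 0.29), and that within Fgf9 held 3 (ratio 0.28). Commonly covered sequence was thus CpG-dense at some members and CpG-poor at others.

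Coverage of the members was widest in R100 and R500. The median covered length was 350 bp for the parental line, 800 for R100, 850 for R500, 400 for R1000 and 300 bp for R4000. Summed over the 1371 members, peaks covered 662 kb for the parental line, 1357 for R100, 1372 for R500, 758 for R1000 and 577 kb for R4000. R100 and R500 thus covered 2.05 and 2.07 times the parental length, R1000 1.14 times and R4000 0.872 times. The lists differ in length in a similar order, with 10778, 25180, 21888, 9595 and 6820 distinct peaks, and the part of list length or library depth in these values was not tested. R100 alone had the widest coverage at 561 members and R500 alone at 560, against 27 for the parental line, 44 for R1000 and 16 for R4000. R4000 alone had the narrowest coverage at 535 members and the parental line alone at 393.

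**Figure D1:**
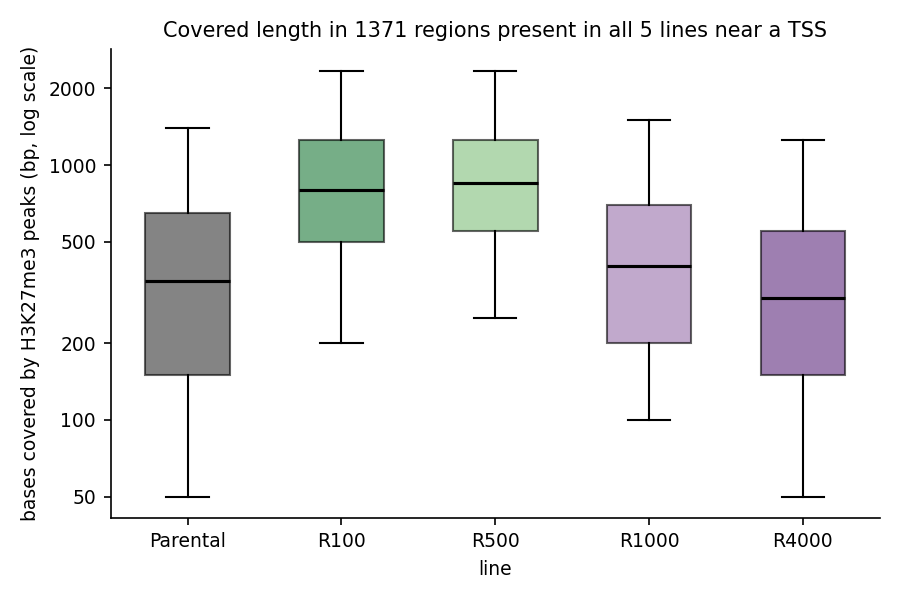
Covered length of the 1371 members in each line, in bp on a log scale. Boxes span the quartiles with the median as a line, whiskers reach the 5th and 95th percentiles. The medians lie at 800 and 850 bp for R100 and R500 and between 300 and 400 bp in the other lines.

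The members made up a small part of the long lists and a large part of the short ones. They held 7.37% of the R100 peaks and 8.61% of the R500 peaks, but 21.7% of the parental, 24.8% of the R1000 and 33.9% of the R4000 peaks. By bases they held 53.8% of all that R4000 peaks covered, 47.0% for R1000 and 40.5% for the parental line, against 26.9% for R100 and 30.3% for R500. More than 50% of the bases in R4000 peaks therefore lay in these regions. Members must hold a peak of every list, so short lists tend towards larger shares by the rule. How far this goes was not tested. Members covered by 1 peak made up 71.7% for R100 and 69.9% for R500. In the parental, R1000 and R4000 lines the shares were 55.9%, 52.3% and 57.3%, and up to 9, 7 and 11 separate peaks lay in a member. The median part of a region that was covered was 85% for R100, 85.2% for R500, 36.4% for the parental line, 42.9% for R1000 and 30.4% for R4000. Regions were merged from the peaks of all lists, so lines with wide coverage set much of their width. Such lines tend by this rule towards larger covered parts and fewer separate peaks, and the size of this effect was not tested.

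Member by member, R100 covered more bases than the parental line at 1228 regions (89.6%, 95% CI 87.8 to 91.1%) and fewer at 107 (7.80%). Among all union regions with a peak in both lists, 77.9% were covered over more bases in R100 and 13.9% over fewer. R500 covered more bases at 1268 members (92.5%, 95% CI 91.0 to 93.8%), against 78.0% of all regions shared with the parental list, and fewer at 65 (4.74%), against 13.2%. R1000 covered fewer bases than the parental line at 507 members (37.0%, 95% CI 34.5 to 39.6%), against a background of 39.5%, and more at 725 (52.9%), against 46.9%. R4000 covered fewer at 703 members (51.3%, 95% CI 48.6 to 53.9%), against 52.7% of all shared regions, and more at 536 (39.1%), against 35.2%. At 381 members R4000 covered at most 0.5 times the parental bases (27.8%, background 31.5%), and at 253 it covered at least 2 times as many (18.5%, background 18.2%). R1000 covered at most 0.5 times the parental bases at 177 members (12.9%, background 20.2%) and at least 2 times as many at 358 (26.1%, background 26.6%). R100 covered at least 2 times as many at 794 members (57.9%, background 56.2%) and at most 0.5 times at 34 (2.48%, background 7.25%). For R500 the counts were 803 (58.6%, background 54.8%) and 17 (1.24%, background 6.64%). The intervals cover counting of regions only. Since presence in each list is part of the rule, these shares describe the members and are not read against the background. The median difference from the parental line was 450 bp for R100 and in R500, 50 bp for R1000 and -50 bp for R4000.

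Members were also grouped by their parental extent. Of the 134 members covered over more than 1000 bp by the parental line, R4000 covered fewer bases at 105 and more at 22, and the median was 1400 bp for the parental line and 1100 bp for R4000. Of the 428 members covered over 100 to 200 bp by the parental line, R4000 covered more bases at 242 and fewer at 122. The 76 members with only 50 parental bp could not be covered over less, and 64 of them were covered over more bases in R4000. The R4000 median was thus below the parental one where the parental peaks were wide and above it where they were narrow. The parental length is itself a term of this difference, so such a pattern arises in part from the grouping, and how much was not tested. R100 and R500 medians were above the parental median in every class, from 450 and 475 bp where the parental line had 50 bp to 2250 bp in both where it had a median of 1400 bp.

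Presence in every line did not mean that the same bases were covered. At 801 members (58.4%, 95% CI 55.8 to 61.0%) at least 50 bp were covered in all 5 lines, with a median of 150 bp and a maximum of 2500 bp. At the other 570 members (41.6%) no base was common to all 5 lines. The members without a common base were narrower in the parental line, with a median of 200 bp against 500 bp, and in R4000, with 150 bp against 450 bp. Among the 307 regions in all 5 lines that lay farther from a TSS, 156 had a common base (50.8%).

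R100 and R500 peaks covered 1357 and 1372 of the 1644 kb of member regions, so a large overlap follows from their extent alone. The 1148 kb that they shared were 84.6% of the R100 bases and 83.7% of the R500 bases. Most bases of the short lists also lay within the R500 peaks, with 89.1% for the parental line, 89.5% for R1000 and 91.3% for R4000. Shares of this kind depend on the covered length of both lines and are given as values only. The parental line and R4000 shared 318 kb, which is 48.0% of the parental bases and 55.1% of the R4000 bases. R1000 and R4000 shared 370 kb, 48.9% of the R1000 and 64.1% of the R4000 bases.

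Around the TSS the coverage had a notch. The profile was taken over the 1021 protein-coding genes with a TSS within 5 kb of a member. At the TSS itself 9.50% of these genes were covered in the parental line, 31.8% for R100, 29.6% for R500, 13.4% for R1000 and 9.50% for R4000. The highest shares lay downstream, with 26% at 600 bp for the parental line, 59.2% at 500 for R100, 56.3% at 700 for R500, 31.3% at 700 for R1000 and 24.7% at 400 bp for R4000. Coverage upstream was lower, and at 500 bp before the TSS it was 14.1% for the parental line, 38.7% for R100 and 15.1% for R4000. All 5 lines thus had a larger downstream and a smaller upstream shoulder, and the rule keeps the coverage close to a TSS in any case. At 1 kb upstream R4000 covered 7.54% of the genes and the parental line 13.2%, while at 500 bp downstream they covered 24.3% and 23.4%.

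**Figure D2:**
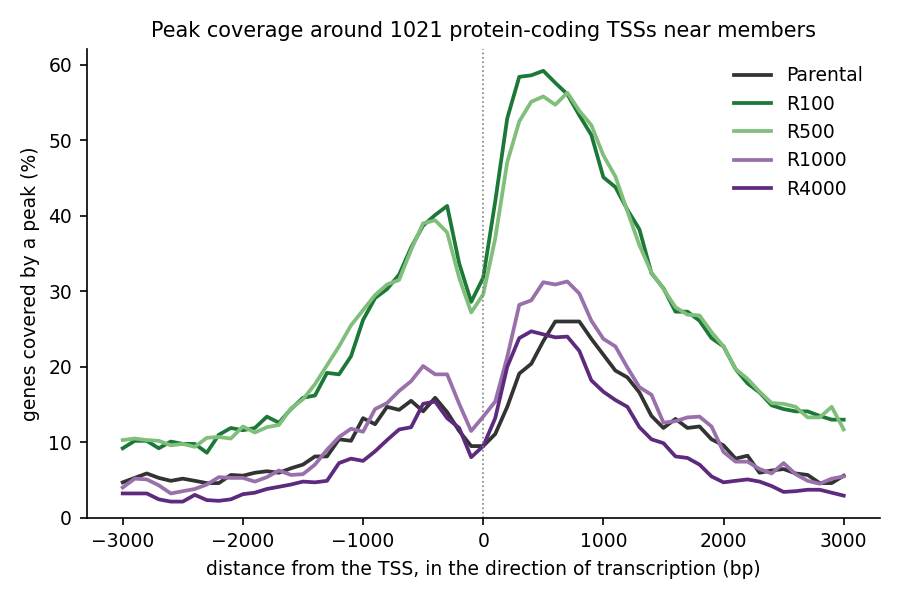
Share of 1021 protein-coding genes near members that a peak covered, in % (vertical axis), by distance from the TSS in the direction of transcription in bp (horizontal axis), with 1 line per cell line. R100 and R500 lie above the other lines throughout, and each line dips near the TSS and is highest 400 to 700 bp downstream.

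A TSS lay inside 379 members (27.6%, 95% CI 25.3 to 30.1%; 75% when peaks within 1000 bp were joined first), and the middle of the region was downstream of the nearest TSS in 875 (63.8%). Members that held a TSS had a median coverage of 400 bp for both the parental line and R4000, against 350 and 250 bp for the 210 members that lay more than 2 kb from a TSS. Of the union regions within 5 kb of a TSS that were not in all 5 lines, 2.82% held a TSS, but those regions had a median width of 100 bp against 1000 bp for the members. Of the bases in members, 12.2% were coding exon, 10.9% UTR, 44.7% intron and 26.8% outside genes. At the limit of 5 kb, the last regions inside lay 4998 and 4992 bp from the TSS of AC102525.1 and Cox4i2, and the first outside lay 5008 and 5009 bp from the TSS of Pfn3 and B3gat2. The 2 inside were covered over 350 and 100 bp by the parental line, 800 bp each by R100 and 200 and 150 bp by R4000. Those outside were covered over 300 and 50 bp by the parental line, 1000 and 250 by R100 and 150 and 200 bp by R4000. Regions on both sides of the limit thus held values in the range of the members.

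The 12 members with the largest median coverage lay at AY036118, Hoxa7, Osr2, Sp9, Atf3, Hoxa9, Gm1337, Hoxa11, Lbx1, Nkx2-3, Id1 and Gm5607, and 3 of these are in the Hoxa cluster. The largest, chr17:39979851-39985850 on mm9, overlaps AY036118, annotated as a pseudogene. The locus holds sequence of the ribosomal RNA repeat, so reads of other copies cannot be told apart from its own. It was covered over 1750 bp by the parental line, 6000 bp by R100 and R500 and 5950 bp by R1000 and R4000. The parental line stood apart there, and the other lines differed by a single bin of 50 bp. The second, chr6:52164851-52173000 in the Hoxa cluster, holds the TSS of Hoxa7, a homeobox gene of anterior-posterior patterning. It was covered over 5300 bp by the parental line, 6650 by R100, 7300 by R500, 4800 by R1000 and 3150 bp by R4000. R500 was highest and R4000 lowest at this region, which held the largest shortfall of R4000 among the members, -2150 bp.

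Osr2, which encodes a zinc finger regulator of limb, palate and kidney development, had a region over its TSS at chr15:35222851-35227100. It was covered over 3100 bp by the parental line, 3950 by R100, 3850 by R500, 3850 by R1000 and 3150 bp by R4000. A second Osr2 region, chr15:35228401-35231800, lay mostly in its intron and was covered over 2700 bp by the parental line, 2700 by R100, 3050 by R500, 2100 by R1000 and 1200 bp by R4000. R4000 was therefore close to the parental line at the start of Osr2 and lowest further inside the gene. Sp9, a zinc finger factor of limb bud and forebrain, had chr2:73108201-73112800 with 2850 bp for the parental line, 4600 for R100 and R500, 3850 for R1000 and 3350 bp for R4000. Here all resistant lines lay above the parental line. Atf3, a stress-induced transcription factor, had chr1:193007401-193011350 upstream of its TSS, entirely outside genes. Its coverage was 3650 bp for the parental line, 3950 for R100 and R500, 3150 for R1000 and 3400 bp for R4000. Of it, 2500 bp were covered in all lines, the most for any member.

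Among the others, Lbx1 and Nkx2-3 are homeobox genes, of muscle precursors and of spleen and gut stroma. Coverage at Nkx2-3, chr19:43685601-43690550, was 2650 bp for the parental line, 4800 for R100, 4500 for R500, 2950 for R1000 and 2350 bp for R4000. R100 and R500 stood well above the other 3 lines there. Id1 encodes an inhibitor of E proteins such as E2a, a main regulator of B-cell development. Its region, chr2:152561551-152564850, was covered over 2850 bp by the parental line, 3100 by R100, 3050 by R500, 2650 by R1000 and 2150 bp by R4000. The lines thus differed little at Id1, with R4000 the lowest.

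**Figure D3:**
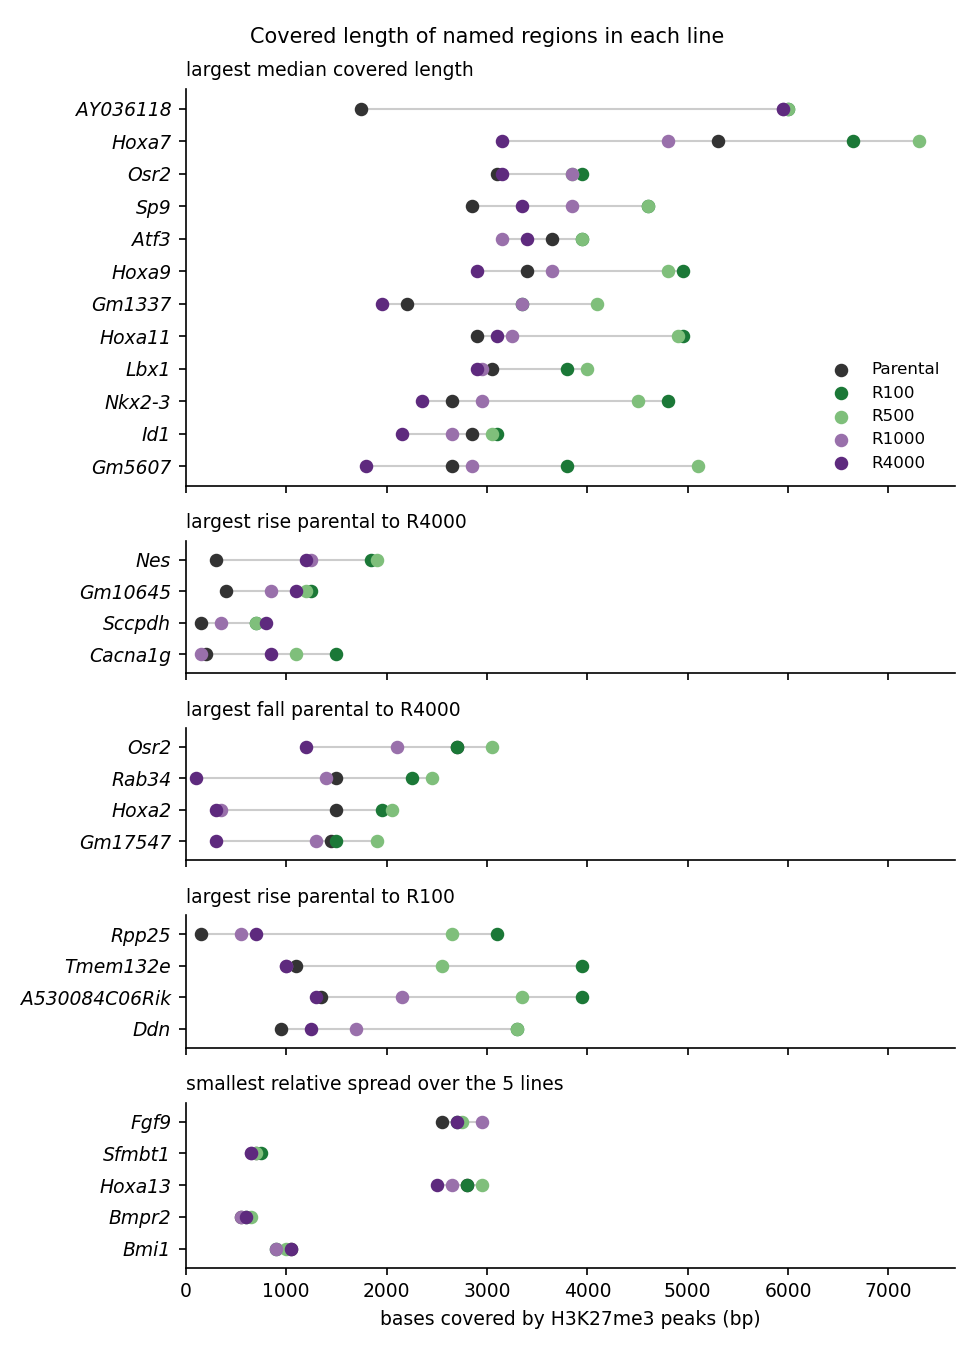
Covered length in bp (horizontal axis) of named members in each of the 5 lines, 1 row per region and 1 point per line, grouped by the rule that chose them. A region that met several rules stands under the first, and points of equal value lie on each other. R4000 lies at 100 to 1200 bp in the panel of largest falls, and all 5 points lie close together in the lowest panel.

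Single members departed from the common order of lines. The largest excess of R4000 over the parental line after AY036118 was at Nes, which encodes the neural progenitor filament nestin, at chr3:87774301-87776450. It was covered over 300 bp by the parental line, 1850 by R100, 1900 by R500, 1250 by R1000 and 1200 bp by R4000. The resistant lines all covered at least 1200 bp there. Next came Gm10645, with 400 bp for the parental line and 1100 bp for R4000. Sccpdh, with 150 and 800 bp, and Cacna1g, a T-type calcium channel gene, with 200 and 850 bp, were tied in their excess of 650 bp with Adm, Rpl9, Tbx1 and Wnt1. In the opposite direction, the region at Rab34 and Rpl23a, chr11:78001551-78004150, was covered over 1500 bp by the parental line, 2250 by R100, 2450 by R500, 1400 by R1000 and 100 bp by R4000. The Hoxa2 region chr6:52112801-52115150 was covered over 1500 bp by the parental line, 1950 by R100, 2050 by R500, 350 by R1000 and 300 bp by R4000. R4000 alone was narrow at Rab34, while R1000 and R4000 both were at Hoxa2. Beside a microRNA gene, Mir9-2, the lincRNA Gm17547 had a region with 1450 bp for the parental line and 300 bp for R4000.

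The largest differences between R100 and the parental line, after AY036118, were at Rpp25, Tmem132e, A530084C06Rik and Ddn. At Rpp25, which encodes a subunit of RNase P and MRP, chr9:57349451-57352900 was covered over 150 bp by the parental line, 3100 by R100, 2650 by R500, 550 by R1000 and 700 bp by R4000. Coverage in R1000 and R4000 was nearer to the parental line than to R100. The region of A530084C06Rik lies next to Foxq1, a forkhead gene, with 1350 bp for the parental line, 3950 for R100 and 1300 bp for R4000. Tmem132e had 1100 bp for the parental line, 3950 for R100 and 1000 bp for R4000, and Ddn had 950, 3300 and 1250 bp.

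Other members hardly differed between the lines. Among members with a median of at least 500 bp, the smallest relative spread was at Fgf9, which encodes a growth factor of lung and gonad development. Its region in chr14:58691151-58694200 was covered over 2550 bp by the parental line, 2700 by R100, 2750 by R500, 2950 by R1000 and 2700 bp by R4000, a coefficient of variation of 5.28%. The parental line was lowest there and R1000 highest. Sfmbt1, Hoxa13, Bmpr2 and Bmi1 followed with 6.06%, 6.24%, 7.09% and 7.74%. Bmi1 encodes a core subunit of PRC1 itself. Its intronic region chr2:18599301-18600400 was covered over 1050 bp by the parental line, 900 by R100, 1000 by R500, 900 by R1000 and 1050 bp by R4000.

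The members lay near 1383 annotated genes, 3.71% of all 37273, and 1021 of these were protein-coding, which is 4.56% of all 22367 protein-coding genes. This share is the background for the gene lists below, which were drawn by symbol with earlier results of these data known. Where a gene of a list had several members, the values are those of the one with the largest median coverage and stand for that region only. Of 39 Hox genes, 23 had a TSS near a member (59.0%, 95% CI 43.4 to 72.9%). Hoxa accounted for 10 of its 11 genes, Hoxc for 8 of 9 and Hoxb for 5 of 10, and none of the 9 Hoxd genes was near a member. The 19 Hoxa members were covered over 30.8 kb by the parental line, 41.2 by R100, 41.5 by R500, 28.8 by R1000 and 22.9 kb by R4000. R4000 covered fewer bases than the parental list at 16 of them and more at 2, beside 51.3% and 39.1% of all members. Among all members with over 200 parental bp, R4000 covered fewer at 67.0% and more at 26.5%. The 35 Hox members of that class had 71.4% and 22.9%. The 20 Hoxc members were covered over 8.40 kb by the parental line, 17.9 by R100, 18.2 by R500, 7.90 by R1000 and 6.85 kb by R4000, with fewer bases in R4000 at 9 and more at 8. The 6 Hoxb members were covered over 1.70 kb by the parental line and 2.20 kb by R4000. The shortfall of R4000 over Hox genes thus lay mainly in Hoxa, whose regions are also the widest.

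Of 12 LIM homeobox genes, which specify neurons and limb tissue, 6 were near a member (50%, 95% CI 25.4 to 74.6%). R4000 covered fewer bases than the parental list at 13 of their 17 members and more at 2, beside 51.3% and 39.1% of all members. R1000 covered fewer at 8 and more at 9. Among the 11 with over 200 parental bp, R4000 covered fewer at 72.7%, near the 67.0% of all members of that class. Among the 6 with at most 200 parental bp it covered fewer at 83.3%, against 24.2% of all members of that class. Lhx1, of kidney and head development, had chr11:84334151-84338150 with 1800 bp for the parental line, 3400 for R100 and R500, 1300 for R1000 and 900 bp for R4000. Lhx4, of pituitary and motor neurons, had chr1:157582201-157586250 with 1450 bp for the parental line, 3200 for R100, 3600 for R500, 850 for R1000 and 800 bp for R4000. In both of these regions R100 and R500 had the widest coverage and R4000 the narrowest, which did not hold at every other member of these genes, such as chr1:157589601-157590750 at Lhx4 with 100 parental bp and 200 bp for R4000. Isl2, of motor neurons, had 2350 bp for the parental line, 3100 for R100, 2950 for R500 and 2000 bp for both R1000 and R4000 at its widest member. Its other member had 650 bp for the parental line, 2550 for R100, 2500 for R500, 1150 for R1000 and 500 bp for R4000. Of the 4 Lhx9 members, R4000 covered more bases than parental peaks at 1 (800 and 950 bp), fewer at those of 950 and 650 bp and of 200 and 150 bp, and as many at the last (450 bp). The members of Lhx2 and Lmx1b with the largest median coverage had 1200 and 900 bp and 150 and 50 bp.

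Further transcription factor families were covered in part. Of 23 Otx, Emx, Dlx, Msx, En, Gbx, Pitx and Meis genes, 9 were near a member, of 42 forkhead genes 12, of 35 developmental bHLH genes 12, of 29 Gli, Zic, Klf and Egr genes 8, of 14 Nkx genes 4, of 17 T-box genes 4, of 9 Pax genes 3 and of 12 genes of the Irx and sine oculis (Six2) families 2. Of the 18 Sox genes only Sox8 was near a member, and of the 6 Gata genes only Gata2. Fewer bases in R4000 than in the parental line were found at 14 of the 23 forkhead members and more at 7. Among the 21 bHLH members the split was 10 against 8. Of all members, 51.3% were covered over fewer bases in R4000 and 39.1% over more. Tbr1, a T-box factor of cortical neurons, had a region with 550 bp for the parental line, 1200 for R100, 1150 for R500, 750 for R1000 and 50 bp for R4000. Tbx1, the T-box gene of pharyngeal development, had 300 bp for the parental line, 2400 for R100, 2350 for R500, 600 for R1000 and 950 bp for R4000. The T-box genes therefore had no common direction. The Tbx2 member of largest median coverage, with 1150 bp for the parental line and 1550 bp for R4000, lay on the side of Tbx1. The other Tbx2 members had 350 and 100 bp and 700 bp for both lines. Eomes, with 600 and 450 bp, lay on the side of Tbr1.

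Otx1, a homeobox gene of the forebrain, was covered over 250 bp by the parental line, 1800 by R100, 1450 by R500, 1250 by R1000 and 800 bp by R4000. All resistant lines were above the parental line there. Dlx2, of the ventral forebrain, had 1950 bp for the parental line and 1700 bp for R4000, Pitx3, of midbrain dopamine neurons and lens, had 1050 and 700 bp, and Dlx4 had 650 and 1000 bp. Irx5 was covered over 900 bp by the parental line, 2200 by R100, 2250 by R500, 1550 by R1000 and 450 bp by R4000, and Six2, of nephron progenitors, over 500, 1150, 950, 550 and 200 bp in the same order. Both of these regions were widest in R100 or R500 and narrowest in R4000. Another Irx5 member was narrowest in R1000, with 200 bp against 450 bp for R4000. Of the Pax genes, Pax2, Pax3 and Pax6 had narrow parental coverage, at 100, 100 and 250 bp, and 100, 100 and 150 bp for R4000. Pax5, the B-lineage member of the family, was not near a member.

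Among bHLH genes, Hand1, of the heart, had 4 members. The one with the largest median coverage had 950 bp for the parental line and 1350 bp for R4000. The others had 600 and 450 bp, 550 and 150 bp and, in a region named after Gm11003, 900 bp for both lines. Neurog3, of endocrine pancreas, had 900 and 400 bp. Hes2 and Hes7, of the Notch-regulated family of repressors, had 850 and 550 bp for the parental line against 550 and 300 bp for R4000. Of the 4 Id genes, Id1 and Id2 were near members. Id2, at chr12:25784351-25786050, was covered over 950 bp by the parental line, 1600 by R100, 1700 by R500, 1000 by R1000 and 1550 bp by R4000. At the other Id2 members R4000 covered 50 and 100 bp against 100 and 350 parental bp, so the regions of Id2 differed in direction. Egr2 and Egr3, immediate early zinc finger genes, were covered over 700 and 850 bp by the parental line and over 1000 and 1100 bp by R4000. The other Egr2 members had 100 and 50 bp and 350 and 250 bp for the parental line and R4000. The other Egr3 member had 450 and 600 bp. Gli1, an effector of hedgehog signalling, had 1050 bp for the parental line and 400 bp for R4000, and 150 and 200 bp at its other member. Zic2 had 350 and 200 bp at the member of largest median coverage. At the other Zic2 members the values were 100 and 300 bp and 150 and 250 bp, so its regions also differed in direction.

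Signalling genes followed no common direction. Near members were 6 of 19 Wnt genes, 6 of 36 Fgf, Bmp and hedgehog ligand genes and 9 of 80 potassium channel genes. Wnt1 had chr15:98621201-98624550 with 250 bp for the parental line, 2450 for R100, 3300 for R500, 1350 for R1000 and 900 bp for R4000. Wnt10a had 750 bp for the parental line, 950 for R100 and R500, 200 for R1000 and 450 bp for R4000. R4000 was above the parental line at Wnt1 and below it at this region of Wnt10a. The other Wnt10a members had 100 and 250 bp and 250 and 200 bp for the parental line and R4000. Dhh, the desert hedgehog gene, had 750 bp for both the parental line and R4000 against 2800 for R100 and 2850 for R500, and Fgf8 had 850 and 400 bp for the parental line and R4000. Potassium channel genes had lower R4000 coverage at 7 of 11 members, beside 51.3% of all members, among them Kcnk13 with 2250 bp for the parental line and 1300 bp for R4000 and Kcnh3 with 1100 and 300 bp.

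Genes of the Polycomb system were themselves among the members, with 5 of 27 near one (18.5%, 95% CI 8.18 to 36.7%). Cbx8, a PRC1 subunit that binds H3K27me3, had chr11:118902751-118905650 with 2200 bp for the parental line, 2650 for R100, 2850 for R500, 2350 for R1000 and 2350 bp for R4000. Cbx2, beside it, had 700 bp for the parental line and 850 bp for R4000. Pcgf2, another PRC1 subunit, had 750 and 450 bp, and Kdm6b, a demethylase of H3K27me3, had 300 bp for the parental line, 1050 for R100 and 250 bp for R4000. None of the PRC2 core genes Ezh2, Eed and Suz12 was near a member. Of the 7 Cdk inhibitor genes only Cdkn1a, the p53 target p21, was near a member, with 500 bp for the parental line, 1400 for R100, 1250 for R500, 750 for R1000 and 1100 bp for R4000. Every resistant line was above the parental line at Cdkn1a. Of 42 cyclin and Cdk genes 4 were near a member. Ccnd2, a G1 cyclin, was covered over 1300 bp by the parental line and 950 bp by R4000, and Ccno over 650 and 1000 bp. The other Ccnd2 members had 300 and 550 bp, 100 and 200 bp, 1250 and 1050 bp and 700 bp for both lines. The other Ccno members had 600 and 550 bp, 250 and 200 bp and, in a region named after Gm6320, 100 bp for both. Cdk4 was covered over 350 and 150 bp and Cdk18 over 400 and 200 bp.

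Ribosomal protein genes, which are housekeeping genes, were also near members, with narrow parental coverage. Of 82 such genes 23 were near a member (28.0%, 95% CI 19.5 to 38.6%). Their median coverage was 100 bp for the parental line, 650 for R100, 700 for R500 and 350 bp for both R1000 and R4000. R4000 covered more bases than the parental line at 18 of the 23 members (78.3%) and fewer at 4, and R1000 more at 19 and fewer at 2. Since their parental coverage was small, the comparison was also made among members covered over at most 200 bp by the parental line. There R4000 covered more at 16 of 19 ribosomal protein members (84.2%), at 5 of 10 Hox members and at 1 of 6 LIM homeobox members, against 306 of all 504 (60.7%). Of the 4 genes that the naming rule gave, Rpl10a was covered over 350 bp by the parental line, 1250 by R100, 1200 by R500, 750 by R1000 and 600 bp by R4000. Rpl31 had 150 bp for the parental line and 300 bp for R4000, whereas Rpl12 had 600 and 500 bp and Rpl23a, in the region of Rab34, had 1500 and 100 bp. Rpl9, chosen after its values were seen, was covered over 50 bp by the parental line and over 700 bp by R4000.

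Members near small nucleolar RNA (snoRNA) genes were also mostly covered over more bases in R4000. There were 28 such members, 13 of them also near a ribosomal protein gene, and R4000 covered more bases than the parental line at 24 (85.7%) and fewer at 4, beside 39.1% and 51.3% of all members. Of the 28, 20 were covered over at most 200 bp by the parental line, and R4000 covered more at all 20, against 60.7% of all members of that class, and at 4 of the other 8. Median coverage was 175 bp for the parental line, 650 for R100, 800 for R500, 500 for R1000 and 400 bp for R4000. The group was chosen after the values were seen. One of them, chr1:162965351-162967100 beside Zbtb37, lies near 9 snoRNA genes, among them Snord47. That region was covered over 1150 bp by the parental line, 1250 by R100, 1400 by R500, 1500 by R1000 and 1700 bp by R4000. R4000 was the highest line there, which was so at only 16 members when R4000 stood alone.

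**Figure D4:**
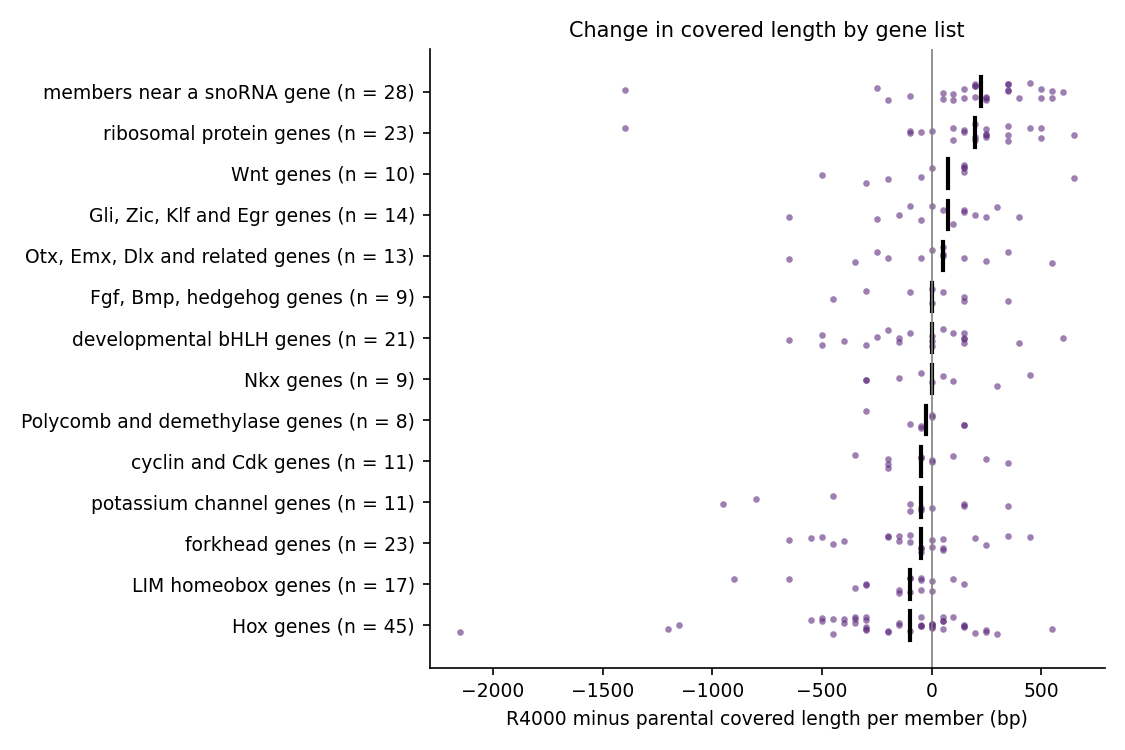
Covered length in R4000 minus that in the parental line, in bp (horizontal axis), for each member of the gene lists with at least 8 members and for members near snoRNA genes (vertical axis), with the median as a bar. Medians run from -100 bp for Hox and LIM homeobox genes to 200 bp for ribosomal protein genes and 225 bp near snoRNA genes, and points of most lists fall on both sides of 0.

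B-lineage genes were near members about as often as protein-coding genes in general. Of 21 B-lineage genes only Bcl6, the germinal centre repressor, was near one (4.76%, 95% CI 0.846 to 22.7%), with 200 bp for the parental line, 650 for R100, 550 for R500, 350 for R1000 and 450 bp for R4000. Cd79a, Ebf1 and Tcf3 were not. The labelled cell type could not be checked by marker expression, since only peak positions were analysed. Of 67 clustered histone genes 1, Hist3h2ba, was near a member (1.49%). Of 17 genes of other blood lineages, Tal1, Gata2 and Tcf7 were near a member. Tal1, of blood stem cells and erythroid cells, was covered over 1200 bp by the parental line, 1300 by R100 and R500, 1250 by R1000 and 1000 bp by R4000, while Tcf7, of T cells, had 150 and 100 bp.
Immunoglobulin loci held members in all lines, and these were chosen after their values were seen. The region chr12:114663451-114664500, near the heavy chain joining segments and Ighm, was covered over 700 bp by the parental line and R100, 950 bp by R500 and R1000 and 900 bp by R4000. In the kappa locus, chr6:70673301-70674500 near Igkj1 to Igkj5 and Igkc was covered over 750 bp by the parental line, 700 by R100, 1000 by R500, 900 by R1000 and 950 bp by R4000. Neither of these regions was wider in R100 than in the parental line. Another pair of members at the heavy chain joining segments was, with 100 and 400 bp for the parental line and R100 at chr12:114664651-114665150 and 700 and 1350 bp at chr12:114666101-114667900. Another, chr6:68163201-68166350 at Igkv2-112, was widest in the parental line with 2900 bp, against 2100 for R100 and 1800 bp for R4000.

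MicroRNA genes were near 57 members, 43 genes in all (2.73% of those annotated). The cluster of Mir182, Mir96 and Mir183, known from sensory organs, had chr6:30120901-30124100 with 2050 bp for the parental line, 2600 for R100, 3200 for R500, 1950 for R1000 and 1600 bp for R4000. Mir335 had chr6:30686451-30688900 with 2350, 2400, 2350, 2000 and 1650 bp in that order of lines. Both of these regions were narrowest in R4000. Another member at Mir183 and Mir96, chr6:30124251-30126350, had 1250 bp for both the parental line and R4000. The neural Mir9-2 had a region with 850 bp for the parental line, 1050 for R100, 1300 for R500, 1450 for R1000 and 1150 bp for R4000. These microRNAs were chosen after their values were seen.

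Sequence was read in the middle 300 bp of each region. The median GC content of members was 56.0% and the median observed-to-expected CpG ratio 0.57. In 564 members (41.1%, 95% CI 38.6 to 43.8%) the window was CpG-rich, with at least 50% GC and a ratio of at least 0.6. The share was 29.3% (95% CI 24.5 to 34.6%) in the 307 regions of all 5 lines far from a TSS, 27.3% in other union regions within 5 kb of a TSS, 29.0% in the 300 bp at the TSS of all annotated genes and 42.0% at that of protein-coding genes. The CpG-rich share of members was thus near that of protein-coding promoters and above that of all annotated promoters. With the stricter limits of 0.75 for the ratio and 55% for GC, 21.7% of members were CpG-rich.
Counts for R1000 and R4000 were taken apart for CpG-rich and other members. Among the 564 CpG-rich members R1000 covered more bases than the parental line at 342 (60.6%) and fewer at 167, and R4000 more at 261 (46.3%) and fewer at 260 (46.1%). Among the other 807, R1000 covered more at 383 (47.5%) and fewer at 340, and R4000 more at 275 (34.1%) and fewer at 443 (54.9%). R4000 thus covered more and fewer bases about equally often in CpG-rich members and fewer bases more often in the others, and the difference was not tested. Medians of the CpG-rich members were 350 bp for both the parental line and R4000, and those of the others 300 and 250 bp.

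**Figure D5:**
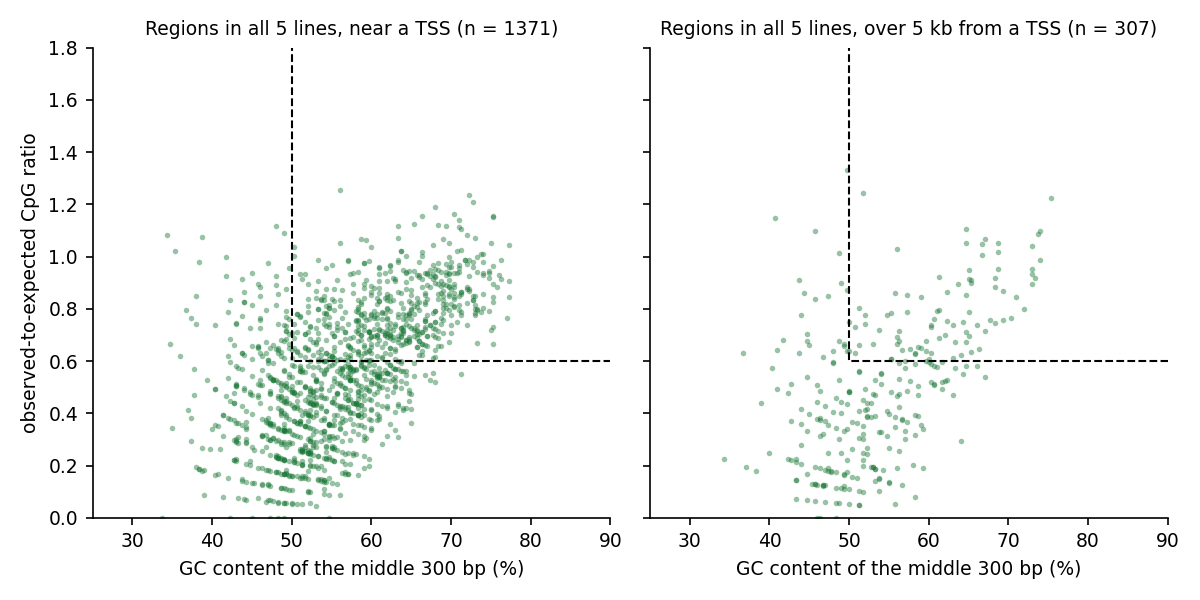
GC content in % (horizontal axis) and observed-to-expected CpG ratio (vertical axis) of the middle 300 bp of each region present in all 5 lines, near a TSS on the left and farther than 5 kb on the right. Each point is 1 region, and dashed lines bound the CpG-rich area, which holds 41.1% of the points on the left and 29.3% on the right.

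Hexamers were searched on both strands of the same windows. CACGTG, the E-box form preferred by Myc, was found in 6.20% of members (95% CI 5.04 to 7.60%), 3.91% of the far regions, 5.44% of other regions near a TSS, 6.21% of all annotated promoters and 7.78% of protein-coding ones, taken from 250 bp before to 50 bp after the TSS. CAGGTG or its reverse CACCTG, an E-box form that E2a can bind, was found in 23.5% of members (95% CI 21.3 to 25.8%), 23.1% of the far regions, 25.1% of other regions near a TSS, 20.3% of all promoters and 19.9% of protein-coding ones. CAGCTG was found in 15.8% of members (95% CI 14.0 to 17.9%), 17.3% of the far regions, 17.0% of other regions near a TSS, 14.9% of all promoters and 15.2% of protein-coding ones. For CACGTG the interval of the members left out the protein-coding promoters, on the high side, and the far regions, on the low side. For CAGGTG it left out both kinds of promoter, on the low side, but held the far regions and the other regions near a TSS. These differences were not tested.

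Members were unevenly spread over the genome. Chromosome 11 held 143 (10.4%), chromosome 1 held 136, chromosome 2 held 121 and chromosome 6 held 119. Relative to annotated genes, chromosomes 15 and 1 held the most, with 76.0 and 69.9 members per 1000 genes, while the X chromosome held 3 members, or 1.15 per 1000, and the Y chromosome, with 21 annotated genes, held 0. With neighbours joined up to 50 kb apart, 784 members fell into groups of at least 2 and 587 stood alone. A group of 23 members over the Hoxc cluster was covered over 9.05 kb by the parental line and 7.30 kb by R4000, and 11 members around Mir9-2 on chromosome 13 had 5.10 and 3.80 kb. Another 9 members lay at Dlx1 and Dlx2, with 5.25 kb for the parental line and 4.90 kb for R4000.

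Compared with the 307 regions of all 5 lines far from a TSS, members were similar in width, with medians of 1000 and 900 bp. R100 covered more bases than the parental line at 80.1% of the far regions and R500 at 85.7%. R4000 covered fewer at 59.6% and more at 31.9%. The shares for members, 89.6%, 92.5%, 51.3% and 39.1%, were higher for more bases and lower for fewer, and the difference was not tested.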

How the data were processed

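H3K27me3 ChIP-seq peak lists of 5 lines were analysed. RRBS was not analysed here. The authors immunoprecipitated chromatin with an antibody to H3K27me3 and called peaks by a Poisson model of immunoprecipitated against input counts in tiled windows, with 2 replicates per line. The labels name Bowtie and mm9, and the threshold and the pooling of replicates are not given in the sources used here. The deposited values are peak positions in bp on a grid of 50 bp. Largest positions on each chromosome fell within its length in NCBIM37 (mm9). Duplicate rows were dropped, since every R100 and R500 peak stands in its list 2 times. A region is present in a line where that line has a peak in it. TSSs are the 5′ ends of 37273 genes of the GENCODE annotation of NCBIM37, sequence is from NCBIM37, and distance is from the nearest edge of the region. A member is named after the nearest protein-coding TSS within 5 kb, or else the nearest gene. Named were the 12 members with the largest median coverage, 5 for each change and for the smallest spread, 2 on each side of the limit, and genes of 23 lists, with every gene up to 6 and otherwise the 4 of largest median coverage. Members and lists were chosen with earlier results of these data known. Python 3.11.15, numpy 2.4.6, scipy 1.17.1 (Wilson intervals), pysam 0.24.0 and matplotlib 3.10.9 were used, and the interval steps were tested on simulated data by counting single bases. The closing section gives the alternatives. With 1 list per line no test was made. Some items are not reported here.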

Additional observations from a re-analysis of the deposited data

Results flagged for a closer look

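The lines lay on opposite sides of the parental line in the covered length of the members. It was 2.05 times the parental length in R100, 2.07 times in R500 and 1.14 times in R1000, but 0.872 times in R4000. This difference was not tested, since each line has 1 list, and the lists of R100 and R500 are also the longest.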

How the results depend on the processing

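In no alternative did the direction of a line against the parental line turn, and 84 of the 112 values stayed within the interval or within 1.5 times the count reported. With peaks at least 150 bp wide there were 711 members near 830 genes, of which 33.1% held a TSS and 46.7% were CpG-rich, and 84.6% of the regions in all 5 lines lay near a TSS. With at least 1 base covered in all 5 lines, chosen after seeing the data, there were 801 members near 900 genes, and the shares were 31.1%, 46.2% and 83.7%. With a TSS within 2 kb and 1 kb, 69.2% and 60.7% of the regions in all 5 lines were members, and 32.6% and 37.2% of members held a TSS. Within 1 kb, 46.1% were CpG-rich and R100 covered more bases than the parental line at 91.4%. With protein-coding genes only, 75.7% of the regions were near a TSS and 22.8% of members held one. With peaks within 1000 bp joined, 75% held a TSS, 48.2% were CpG-rich, R1000 covered fewer bases at 42.0% and R4000 at 57.4%. With only the widest 6820 peaks of each line, R100 covered more at 91.3% and 44.2% were CpG-rich. With presence required in the parental, R1000 and R4000 lines only, R100 covered more at 87.2% and R500 at 90.4%. A CpG window of 1000 bp gave 50.1% CpG-rich members and the stricter limits of 0.75 and 55% gave 21.7%. In these alternatives the Hox genes near a member numbered 18 to 29. No paired analysis was possible because each line has 1 list. The lists hold no depth, so a narrow or missing peak does not show that the mark was absent.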
